A study of Mus musculus with 36 samples.

Results

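The 8 hours between 4 and 12 h after injection of lipopolysaccharide (LPS) were followed in livers of C57BL6/J mice kept at 30 °C, from 4 libraries at 4 h and 4 at 12 h among the 36 libraries of a time course at 22 and 30 °C. Membership came from the titles and the labels' temperature and time, and no library was put in or left out by a measured value. The groups to compare and the gene lists were chosen with earlier results of these data known. LPS, from the outer membrane of Gram-negative bacteria, inflames the whole animal when injected. Housing at 30 °C is close to the temperature at which a mouse spends little energy on keeping warm, and C57BL6/J is the standard inbred laboratory strain. Liver RNA was read by a bulk form of CEL-Seq2, a method that primes at the poly(A) tail and copies the RNA by transcription, which places reads near transcript 3' ends. Every mouse of both groups was injected with LPS, and the labels name no uninjected group at 4 or 12 h, so time since LPS, time of day, feeding and handling cannot be told apart in this step. The 0 h libraries at 30 °C (n = 5) and the 24 h libraries (n = 5) are given beside the step as levels only. The sex and age of the mice, the LPS dose and whether each library is a separate animal could not be learned from the labels, and p-values therefore measure the spread between these libraries, which may be technical. RNA came from whole liver, in which fewer cells of a type and less RNA per cell cannot be told apart.

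Hepatocytes and Kupffer cells, the resident macrophages of the liver, respond to LPS in waves. Toll-like receptor 4 signals through MYD88 to NF-kB, which drives cytokines, chemokines and its own inhibitors, and through TRIF to interferon beta, whose receptor activates a complex with STAT2 and IRF9 and with it the interferon-stimulated genes. Interleukin 6 and interleukin 1 then act on hepatocytes, which raise the acute phase proteins that the liver secretes into plasma and lower many genes of drug, bile acid and intermediary metabolism.

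Values are a signal that the authors call scaled reads per base. How it was scaled from library to library is unknown here. Log2 differences are 12 h minus 4 h on log2(signal + 1), ± SE, and a gene is called where its adjusted p is below 0.05 (limma, 36 libraries in one fit, Benjamini-Hochberg over all genes tested). Estimated depth ran from 933798 to 2744090 reads in the 8 libraries, and 3 reads were worth 1.33 to 3.61 units of signal, so differences of genes whose lower group lies near that level depend on the 1 added before the log and are not bounds. Replicate 4 at 4 h stood apart. Satellite repeat genes held 22.0% of its signal against 0.0205% to 1.18% in the other 35 libraries, genes with predicted or clone names held 35.0% against 6.23% to 7.85% in the other 7, and it had 18633 genes above 0 against 12321 to 14101. Its correlation with the other 4 h libraries was 0.775 to 0.811, while those 3 correlated with each other at 0.893 to 0.931. Summed signal was 1131560 to 1717980 at 4 h and 828054 to 917457 at 12 h. Upper-quartile rescaling moved the median log2 difference of all genes by 0.25, from -0.03 to 0.21, and where it moved the count of a gene list by over 1.5 times the rescaled counts are given. The summed signal of 13 hepatocyte markers was 71882 to 93373 at 4 h and 55885 to 65229 at 12 h, with none at 0, so both groups read as liver.

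Of the 8702 genes tested, 2630 were called (30.2%), 1073 higher at 12 h (12.3%) and 1557 lower (17.9%). Without replicate 4 at 4 h, 1052 were higher and 1401 lower, and 2254 of the 2630 calls were kept with no change of sign. Without the 2 deepest libraries, both at 4 h, 841 were higher and 1140 lower, and 1828 of the 2630 calls (69.5%) were kept. Under upper-quartile rescaling the split was 1740 higher and 1161 lower, so the excess of falls over rises depends on the scaling. A difference of at least 1 on the log2 scale was reached by 745 of the called rises and 1156 of the falls, at least 3 by 33 and 119, and at least 4 by 7 and 42. In 2634 genes (30.3%) the lowest library of one time lay above the highest of the other. Among genes with an official symbol, Mx1, Cmpk2, Ifit2 and Rsad2 had the largest falls and G0s2 and Apoa4 the largest rises.

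**Figure D1:**
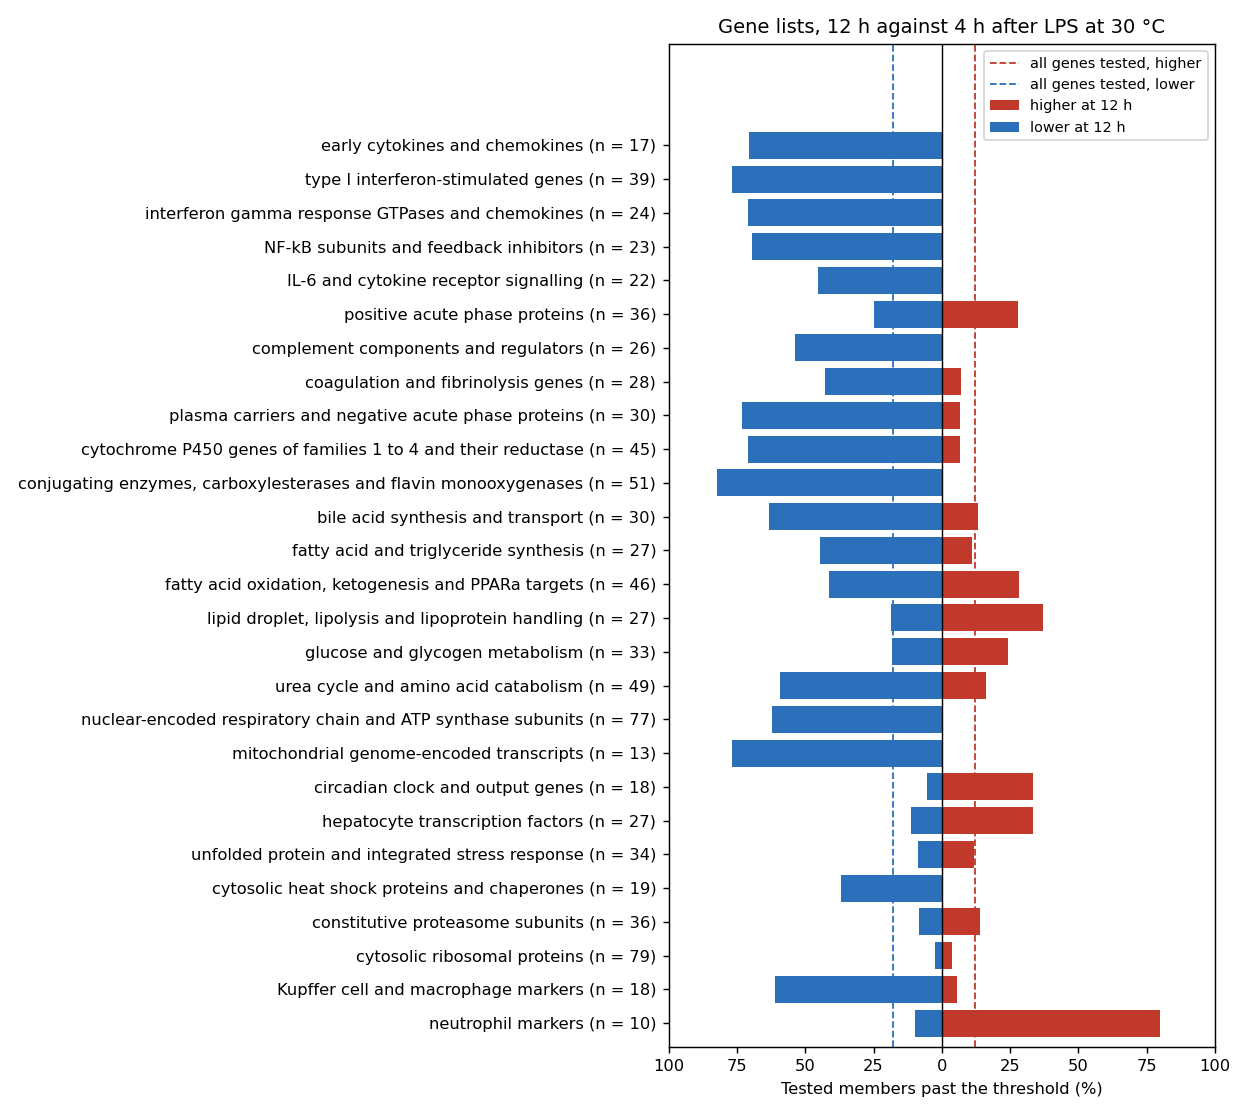
Share of the tested members of each gene list past the threshold at 30 °C, in percent, lower at 12 h to the left (blue) and higher to the right (red), with the shares of all 8702 genes as dashed lines (17.9% lower, 12.3% higher). The bars of the interferon, cytokine, NF-kB, P450 and conjugating enzyme lists lie mostly to the left and those of the neutrophil markers mostly to the right, and lists share some members.

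Interferon-stimulated genes fell together. 30 of 39 tested type I interferon-stimulated genes were lower at 12 h and 0 higher, against 17.9% lower over all genes, with a median of -1.81 against -0.03 (29 lower and 1 higher under upper-quartile rescaling). Mx1, a GTPase that blocks influenza viruses, read 446, 355, 343 and 307 in the 4 libraries at 4 h and 4.07, 2.64, 0 and 6.94 at 12 h, a difference of -6.69 ± 0.70, adjusted p = 6.30e-09. Its 0 h mean was 5.04 ± 3.66 (SD, n = 5), which lay within the range of the 12 h libraries, 1 of which was at 0. Cmpk2, a mitochondrial nucleotide kinase induced by interferon, read 2265, 1779.9, 1231 and 2076 and then 12.5, 20.6, 16.2 and 21.2 (-6.62 ± 0.44, adjusted p = 5.47e-13). Ifit1, which binds viral RNA that lacks a cellular cap structure, read 5619.7, 4505, 4779 and 4989 and then 119, 93.1, 192 and 175 (-5.15 ± 0.38, adjusted p = 3.44e-12). Rsad2, which encodes viperin, read 7738, 6402, 6616 and 9034 and then 137, 169.6, 126 and 197 (-5.57 ± 0.45, adjusted p = 3.33e-11). In these 4 genes every 4 h library lay above every 12 h library. Ifit2 (-5.60 ± 0.48) and Ifit3b (-5.16 ± 0.36), of the same RNA-binding family, fell by similar amounts, though kallisto splits reads that Ifit3 and Ifit3b share and their separate values are uncertain. At 24 h Rsad2 averaged 23.6 ± 10.0 (SD, n = 5) against 238 ± 116 (SD, n = 5) at 0 h. Not every member passed. Oas1a, an interferon-induced RNA sensor (1.12 ± 0.86), was not past the threshold, nor were Irf7 (-0.40 ± 0.26) and Stat2 (-0.56 ± 0.52), which carry the interferon signal.

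Promoters were searched for the sequence that the interferon-activated complex with STAT2 and IRF9 reads, the interferon-stimulated response element (ISRE). The window was 250 bases before to 50 after a RefSeq start (GRCm38.p6), searched on both strands for TTTC, any 2 bases and TTTC. The letters were in 15 of the 29 tested type I genes with a RefSeq promoter (51.7%), in 281 of 6651 tested genes (4.22%) and in 1131 of 32851 RefSeq promoters (3.44%). They were not particular to the type I list, being in 11 of 16 genes of the interferon gamma response list (68.8%), which is described further on. The letters stood in 7.60% of the 1158 genes lower at 12 h with a promoter and in 2.14% of the 842 genes higher. A gene counted where any of its RefSeq starts held a match. The share of RefSeq promoters counts each start by itself, so it is not quite like the shares of genes. A match is a description of the letters only. The windows of Ifit1, Ifit3b and Rsad2 are shown 5′ to 3′ on the gene's strand as examples with a match among the genes just described, and the matches are in capitals.
Ifit1, chr19:34640639-34640938, plus strand: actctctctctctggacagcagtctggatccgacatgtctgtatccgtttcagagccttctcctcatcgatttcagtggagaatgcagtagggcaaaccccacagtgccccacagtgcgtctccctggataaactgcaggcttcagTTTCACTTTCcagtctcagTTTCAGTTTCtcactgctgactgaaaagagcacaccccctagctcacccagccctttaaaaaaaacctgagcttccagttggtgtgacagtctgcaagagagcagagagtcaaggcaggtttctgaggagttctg
Ifit3b, chr19:34607707-34608006, plus strand: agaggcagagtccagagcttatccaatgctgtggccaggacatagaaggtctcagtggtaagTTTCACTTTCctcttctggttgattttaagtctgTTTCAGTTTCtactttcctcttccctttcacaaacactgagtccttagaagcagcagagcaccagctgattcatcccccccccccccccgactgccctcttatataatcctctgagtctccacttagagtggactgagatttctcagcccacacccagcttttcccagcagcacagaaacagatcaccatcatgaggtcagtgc
Rsad2, chr12:26456403-26456702, minus strand: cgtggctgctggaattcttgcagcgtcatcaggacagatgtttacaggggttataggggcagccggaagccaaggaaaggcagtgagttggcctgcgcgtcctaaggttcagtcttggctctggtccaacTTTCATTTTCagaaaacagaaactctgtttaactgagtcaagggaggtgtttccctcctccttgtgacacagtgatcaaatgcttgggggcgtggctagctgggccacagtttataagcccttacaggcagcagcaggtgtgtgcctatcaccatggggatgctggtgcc
Ifit1 and Ifit3b each held 2 matches and Rsad2 held 1. Cmpk2 and Ifit2 fell as far with no match to these letters in the window, and Mx1 was not searched.

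The GTPases and chemokines of the interferon gamma response fell too, with 17 of 24 lower and 0 higher (median -1.32). Cxcl10, a chemokine that draws T cells through CXCR3, read 5563, 5621, 4182 and 5933 at 4 h and 125, 124, 128 and 181 at 12 h (-5.25 ± 0.38, adjusted p = 3.44e-12). Cxcl9, a ligand of the same receptor, read 3084, 2051, 2829 and 2375 and then 1098, 1183, 1377 and 1135 (-1.10 ± 0.17, adjusted p = 6.55e-06), and every 12 h library still lay above the 0 h mean of 45.1 ± 7.13 (SD, n = 5). The times did not overlap in either gene. Guanylate-binding proteins attack the vacuoles of intracellular pathogens, and 10 of 10 tested Gbp genes fell, from -0.95 ± 0.28 (Gbp2) to -3.07 ± 0.48 (Gbp5), though Gbp2 was not past the threshold without the 2 deepest libraries (adjusted p = 0.0711) and near-identical copies make single values uncertain. Gbp6 read 2053, 1912, 1601 and 1913 and then 315, 282, 429 and 354. Immunity-related GTPases, which act on the same vacuoles, were mixed: Ifi47 (-1.90 ± 0.23, adjusted p = 7.56e-08) fell, while Igtp (0.01 ± 0.23) and Iigp1 (-0.42 ± 0.21) were not past the threshold. Irf1, an early transcription factor of this response, read 215, 195, 227 and 133 and then 76.3, 47.1, 47.7 and 44.2 (-1.82 ± 0.28, adjusted p = 6.41e-06).

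Cytokines and chemokines fell as a group. Among 17 tested members 12 were lower and 0 higher (median -2.17). Ccl4, a chemokine of macrophages, read 282, 357, 165 and 205 and then 10.8, 14.4, 9.92 and 6.69 (-4.45 ± 0.58, adjusted p = 3.07e-07). Cxcl1, which draws neutrophils through CXCR2, read 2154, 2559, 2286 and 2167 and then 250.79, 331, 449.97 and 201 (-2.95 ± 0.44, adjusted p = 2.63e-06), with every 12 h library above the 0 h mean of 41.4 ± 20.3 (SD, n = 5). Il1b, the secreted fever cytokine, read 26.5, 30.0, 21.6 and 31.1 and then 6.46, 6.37, 10.1 and 5.89 (-1.80 ± 0.46, adjusted p = 0.00257). The groups did not overlap for any of the 3. Tnf (-3.33 ± 0.61), Il1a (-3.68 ± 0.57), Ccl2 (-2.38 ± 0.50) and Ccl3 (-3.40 ± 0.52) also fell. Ccl5 (-1.02 ± 0.51) and Il1rn, the natural antagonist of interleukin 1 (-0.17 ± 0.24), were not past the threshold.

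The NF-kB list had 16 of 23 members lower and 0 higher (median -1.79). Nfkb1, the gene of the p50 subunit, read 194, 249, 219.8 and 222 and then 46.0, 32.6, 31.3 and 37.4 (-2.57 ± 0.23, adjusted p = 2.32e-10), against 23.2 ± 4.93 (SD, n = 5) at 0 h. Tnfaip3, which encodes the ubiquitin-editing inhibitor A20, read 68.1, 62.7, 72.7 and 85.4 and then 13.6, 5.77, 7.03 and 13.3 (-2.82 ± 0.42, adjusted p = 2.96e-06). Nfkbia, the inhibitor that holds NF-kB in the cytosol, read 589.7, 417, 741 and 615 and then 239.9, 295, 299.5 and 269.6 (-1.07 ± 0.21, adjusted p = 1.64e-04), so that its 12 h libraries stood above the 0 h mean of 128 ± 24.9 (SD, n = 5). Ripk2, the kinase of the NOD receptors, fell furthest in the list (-4.12 ± 0.54, adjusted p = 3.75e-07). Zfp36, which encodes the mRNA-destabilising protein tristetraprolin, fell from 2282, 1088, 1834 and 2199.6 to 219, 256, 340.1 and 261 (-2.74 ± 0.34, adjusted p = 1.31e-07). The p65 subunit gene Rela fell by less (-1.30 ± 0.31, adjusted p = 0.00134), and Nfkbiz (-1.08 ± 0.47) and the RNase gene Zc3h12a (0.15 ± 0.36) were not past the threshold.

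NF-kB sites were searched on both strands as GGG, any 3 bases and TTCC in the same windows, apart from the ISRE letters, so a base can count in both. Among genes with a promoter, the letters were in 7 of 18 of the NF-kB list (38.9%), 5 of 11 of the cytokines (45.5%) and 7.35% of tested genes. They stood in 8.46% of genes lower at 12 h and 6.65% of genes higher. Counted by start, they were in 5.56% of RefSeq promoters. Cxcl10 is shown for holding both kinds of letters, Cxcl1 and Nfkbia for NF-kB letters alone, with matches in capitals.
Cxcl10, chr5:92348840-92349139, minus strand: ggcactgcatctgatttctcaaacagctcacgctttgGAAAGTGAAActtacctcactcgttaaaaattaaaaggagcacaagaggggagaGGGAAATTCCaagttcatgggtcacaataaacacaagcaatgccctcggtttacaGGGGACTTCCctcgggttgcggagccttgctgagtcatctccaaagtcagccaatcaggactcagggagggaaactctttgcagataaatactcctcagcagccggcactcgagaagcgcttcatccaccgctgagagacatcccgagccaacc
Cxcl1, chr5:90890995-90891294, plus strand: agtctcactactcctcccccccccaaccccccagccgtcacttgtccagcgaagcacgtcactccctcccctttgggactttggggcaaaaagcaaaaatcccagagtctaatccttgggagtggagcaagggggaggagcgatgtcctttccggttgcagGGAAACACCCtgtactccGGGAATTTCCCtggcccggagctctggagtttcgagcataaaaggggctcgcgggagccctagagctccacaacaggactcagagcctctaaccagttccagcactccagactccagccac
Nfkbia, chr12:55492598-55492897, minus strand: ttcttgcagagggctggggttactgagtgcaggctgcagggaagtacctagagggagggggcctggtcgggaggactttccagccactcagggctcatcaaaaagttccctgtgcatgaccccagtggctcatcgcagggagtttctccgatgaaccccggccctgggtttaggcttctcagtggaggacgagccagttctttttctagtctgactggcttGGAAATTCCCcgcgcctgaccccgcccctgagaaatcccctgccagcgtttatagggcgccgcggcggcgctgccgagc
Cxcl10 held 3 matches, Cxcl1 held 3 and Nfkbia held 1. In Cxcl10 the first match was of the ISRE letters and the others were of the NF-kB letters. In Cxcl1 the matches after the first overlap on opposite strands and share the same run of capitals. The totals of 3 are therefore not counts of separate NF-kB sites. The differences of Cxcl10, Cxcl1 and Nfkbia were -5.25 ± 0.38, -2.95 ± 0.44 and -1.07 ± 0.21.

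**Figure D2:**
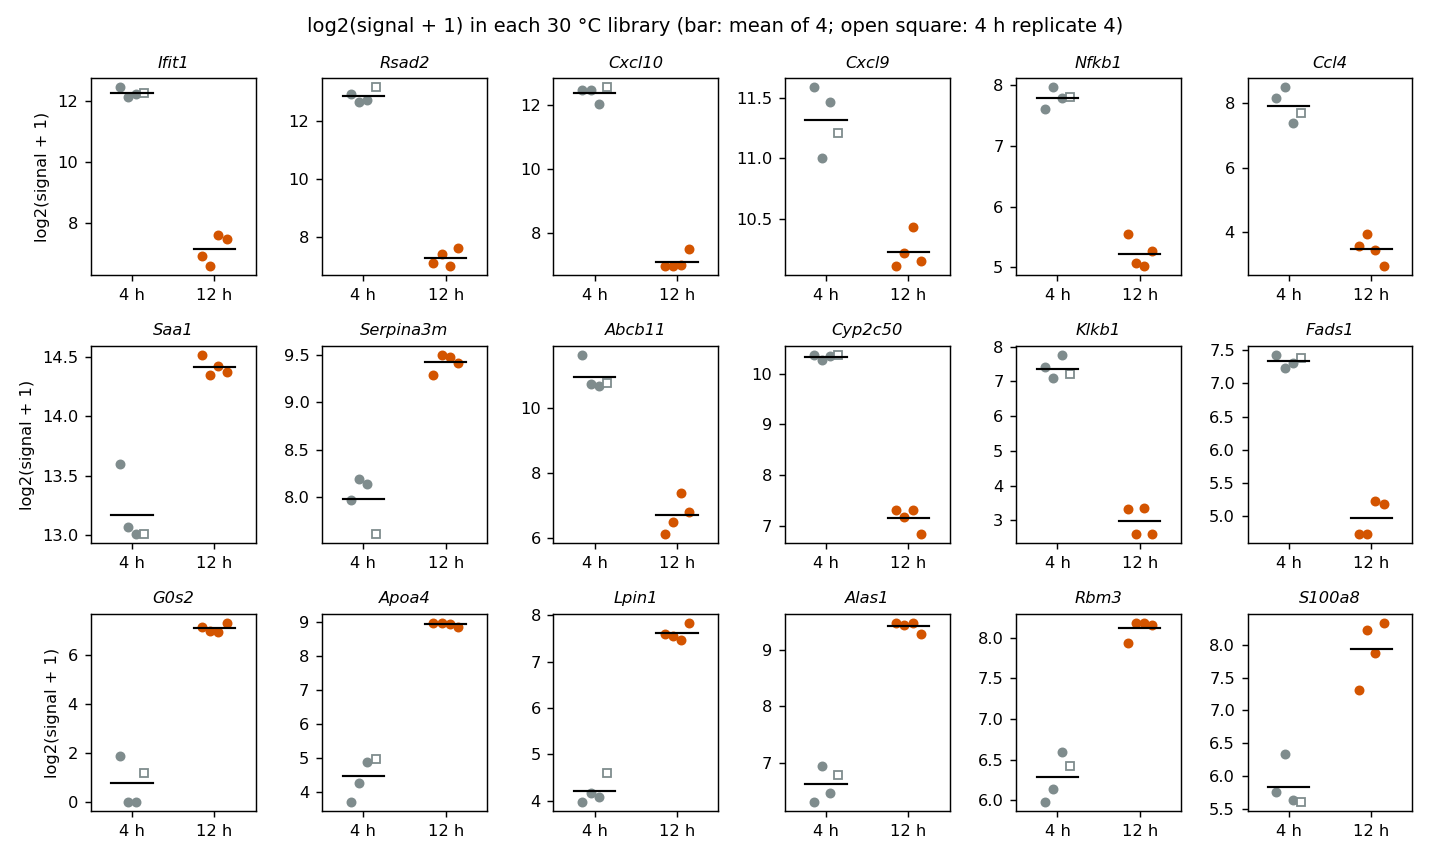
log2(signal + 1) of 18 genes in each 30 °C library at 4 h (grey) and 12 h (orange), with the mean of 4 as a bar and replicate 4 at 4 h as an open square; each panel has its own vertical axis, which need not start at 0. The times do not overlap in any of the 18 panels.

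LPS recognition genes did not move as one. Tlr2, the receptor of bacterial lipoproteins, read 180.3, 133, 143 and 169 and then 1.97, 0, 9.92 and 3.35 (-5.50 ± 0.63, adjusted p = 2.90e-08), with 2 of the 12 h libraries at or under 3 reads. Tlr3, the receptor of double-stranded RNA, read 33.7, 24.8, 25.6 and 47.5 and then 2.08, 1.92, 1.76 and 3.07 (-3.37 ± 0.39, adjusted p = 4.15e-08), with most 12 h libraries at or under 3 reads. Myd88, the adaptor of most Toll-like receptors, read 168, 194, 194 and 147 and then 34.4, 52.6, 63.7 and 48.5 (-1.82 ± 0.29, adjusted p = 7.58e-06). Cd14, which hands LPS to its receptor, moved the other way, from 979, 1134, 1381 and 929 to 2912, 2039, 1977 and 1720.1 (0.96 ± 0.31, adjusted p = 0.0176), with a 0 h mean of 35.0 ± 10.2 (SD, n = 5). Cd14 was not past the threshold without replicate 1 at 12 h (adjusted p = 0.0732) or without the 2 deepest libraries (0.16). Nor was it without replicate 4 at 4 h after median-of-ratios rescaling (0.0527). Lbp, the plasma protein that brings LPS to CD14, fell (-0.56 ± 0.15, adjusted p = 0.00504) but was not past the threshold under upper-quartile rescaling (-0.30, adjusted p = 0.164). Altogether 1 of 10 members were higher and 4 lower (median -0.19), or 2 and 3 (median 0.06) under that rescaling.

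Cytokine receptor signalling genes were lower in 10 of 22 and higher in 0, or lower in 6 and higher in 1 under upper-quartile rescaling. Jak2, the kinase of several cytokine receptors, read 223, 160.4, 184 and 184 and then 25.8, 37.6, 29.2 and 25.3 (-2.64 ± 0.31, adjusted p = 6.89e-08). Socs3, the feedback inhibitor of interleukin 6 signalling, read 66.0, 81.2, 77.6 and 68.4 and then 37.4, 33.3, 30.4 and 27.5 (-1.17 ± 0.32, adjusted p = 0.00562), still above the 0 h mean of 2.37 ± 1.21 (SD, n = 5). Lifr, a receptor chain of leukaemia inhibitory factor, fell (-2.13 ± 0.30, adjusted p = 1.03e-06), as did Il6st, the shared chain gp130 (-1.03 ± 0.18, adjusted p = 4.35e-05), and Stat3 (-0.73 ± 0.18, adjusted p = 0.00158).

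Acute phase genes split. Of 36 tested, 10 were higher and 9 lower, 7 and 9 without replicate 4 at 4 h, and 16 and 5 under upper-quartile rescaling. Saa1, a serum amyloid carried on high-density lipoprotein, read 12418, 8619, 8243 and 8259 at 4 h and 23376, 20854, 21926 and 21192 at 12 h (1.24 ± 0.21, adjusted p = 2.91e-05), against 334 ± 148 (SD, n = 5) at 0 h and 34690.0 ± 5685 (SD, n = 5) at 24 h. Saa2 rose alike (1.41 ± 0.23, adjusted p = 1.02e-05), though the genes share sequence and the split between them is uncertain. Saa3, which is expressed in many tissues, was not past the threshold (0.50 ± 0.31). Orm1, a plasma glycoprotein that binds drugs, rose from 3408, 2789, 3089 and 2518 to 5752, 4728, 5749 and 5100.5 (0.86 ± 0.12, adjusted p = 2.04e-06), and Orm2 rose by more (1.45 ± 0.27, adjusted p = 7.75e-05). Serpina3m, a protease inhibitor, read 249, 289.8, 279.8 and 193 and then 625.1, 724, 716 and 684 (1.45 ± 0.14, adjusted p = 1.37e-09). Lcn2, which withholds iron from bacteria by binding their siderophores, rose from 2176, 2023, 1709.5 and 1659 to 4544, 3802, 4084 and 3891 (1.11 ± 0.23, adjusted p = 2.93e-04). Hp, the haemoglobin-binding protein haptoglobin, rose by less (0.51 ± 0.16, adjusted p = 0.0126) and was not past the threshold without replicate 4 at 4 h (0.43 ± 0.17, adjusted p = 0.0535) or without replicate 1 at 12 h (adjusted p = 0.0701).

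Crp, a plasma pattern-recognition protein, read 2314, 2593, 2505 and 2290.2 and then 529, 657, 435 and 529 (-2.19 ± 0.25, adjusted p = 2.47e-08), where the 0 h mean was 471 ± 117 (SD, n = 5). Hamp, which encodes hepcidin, the hormone that closes the iron exporter ferroportin, fell from 1270.2, 928, 1557 and 757 to 322, 260.2, 328 and 248 (-1.91 ± 0.32, adjusted p = 2.23e-05) against 196 ± 77.2 (SD, n = 5) at 0 h and 639 ± 222 (SD, n = 5) at 24 h. Cp, the copper oxidase ceruloplasmin, read 1359, 1229.9, 1763 and 2215 and then 731, 681, 681 and 621 (-1.24 ± 0.17, adjusted p = 4.53e-07), and the 0 h mean was 606 ± 76.7 (SD, n = 5). In each of these 3 the times did not overlap. Serpina1a, an elastase inhibitor whose 4 h libraries lay below its 0 h mean of 1874 ± 223 (SD, n = 5), fell to 529 ± 34.0 (SD, n = 4) (-1.43 ± 0.15, adjusted p = 9.40e-09). The fibrinogen chains Fgb (0.06 ± 0.12) and Fgg (0.02 ± 0.15) were not past the threshold.

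**Figure D3:**
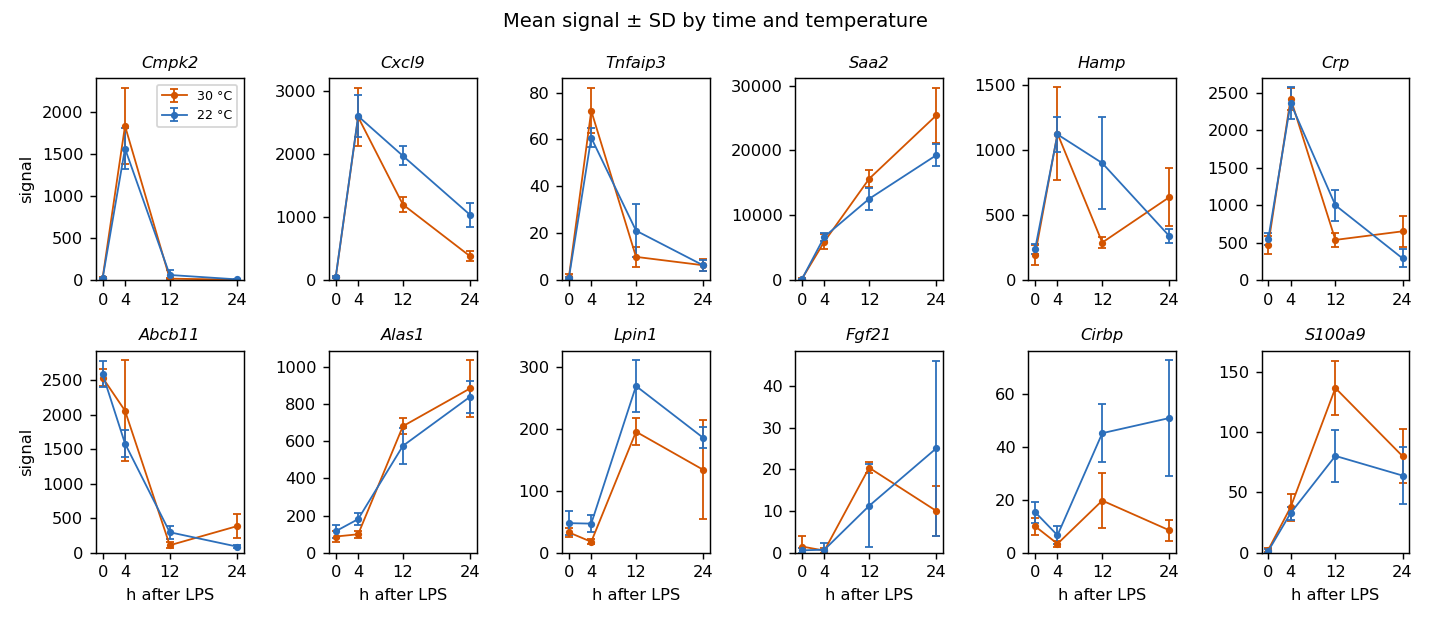
Mean signal ± SD of 12 genes at 0, 4, 12 and 24 h after LPS at 30 °C (orange, n = 5, 4, 4 and 5) and 22 °C (blue, n = 4, 4, 5 and 5), each panel with its own linear axis from 0. Cmpk2, Tnfaip3, Hamp and Crp peak at 4 h at 30 °C, Saa2 and Alas1 are highest at 24 h, and Lpin1, Fgf21, Cirbp and S100a9 are highest at 12 h.

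Complement, the plasma cascade that marks and lyses microbes, was lower in 14 of 26 genes and higher in 0, with 9 lower under upper-quartile rescaling. C9, the pore-forming component, read 597, 644, 370.3 and 358 and then 181, 123, 179 and 134 (-1.64 ± 0.33, adjusted p = 2.63e-04), and C8a, which anchors that pore, fell (-1.33 ± 0.27, adjusted p = 2.96e-04). Mbl2, a lectin that starts the cascade on sugars, read 1271, 1128, 1221 and 1247 and then 388, 455, 445 and 498 (-1.45 ± 0.23, adjusted p = 1.06e-05). C3, the central component, was not past the threshold (0.07 ± 0.19). C1qa, which in liver comes mainly from macrophages, fell (-1.44 ± 0.42, adjusted p = 0.00881) with the Kupffer markers given further on.

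Coagulation genes were lower in 12 of 28 and higher in 2, or 8 and 5 under upper-quartile rescaling. Klkb1, the zymogen of plasma kallikrein, fell furthest, from 171, 135, 215 and 148 to 9.03, 5.16, 9.31 and 5.09 (-4.39 ± 0.33, adjusted p = 5.16e-12), and averaged 334 ± 42.8 (SD, n = 5) at 0 h and 99.4 ± 58.0 (SD, n = 5) at 24 h. Among inhibitors of clotting, Serpind1 or heparin cofactor II (-2.50 ± 0.35, adjusted p = 8.90e-07), Serpinc1 or antithrombin (-1.07 ± 0.17, adjusted p = 1.08e-05) and Proc or protein C (-1.60 ± 0.21, adjusted p = 3.63e-07) all fell. Cpb2, which slows the dissolving of clots, rose (0.53 ± 0.16, adjusted p = 0.0108) but was not past the threshold without replicate 3 at 4 h (adjusted p = 0.0644).

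Plasma carriers were lower in 22 of 30 and higher in 2. Alb, the gene of albumin, read 1931, 2385, 2512 and 2348 and then 1093, 926, 998 and 999 (-1.19 ± 0.16, adjusted p = 3.65e-07). Rbp4, the retinol carrier, fell from 1155, 1356, 1099 and 1275 to 475, 458, 501 and 385 (-1.43 ± 0.17, adjusted p = 5.98e-08). Serpina6, the corticosteroid carrier, read 304, 195, 222 and 248 and then 41.4, 41.2, 63.4 and 39.2 (-2.37 ± 0.38, adjusted p = 9.87e-06) and averaged 1.83 ± 0.803 (SD, n = 5) at 24 h. The exceptions were apolipoproteins of triglyceride-rich particles. Apoa4 read 12.0, 18.1, 28.4 and 30.3 and then 491, 496, 487 and 456 (4.47 ± 0.27, adjusted p = 9.31e-14), at 24 h averaged 1358 ± 533 (SD, n = 5), and had the second largest rise of the step; Apoa5 also rose (1.38 ± 0.20, adjusted p = 2.44e-06). Mup20, a major urinary pheromone carrier, fell from 788, 629.7, 865 and 619 to 179, 102, 173 and 126 (-2.33 ± 0.24, adjusted p = 6.30e-09), with reads shared among the Mup copies.

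Most genes of drug metabolism were lower. Of 45 cytochrome P450 genes and their reductase 32 were lower and 3 higher (median -1.73), and of 51 conjugating enzymes, carboxylesterases and flavin monooxygenases 42 were lower and 0 higher (median -1.62). Cyp2c50, of the family that hydroxylates fatty acids and drugs, read 1317, 1233, 1303 and 1319 and then 159, 144, 159 and 113 (-3.17 ± 0.36, adjusted p = 3.35e-08). Cyp3a11, the main drug-oxidising P450 of mouse liver, read 4998, 5936, 3292 and 4459 and then 868, 707, 892 and 887 (-2.45 ± 0.32, adjusted p = 3.03e-07), against 6186 ± 1600.0 (SD, n = 5) at 0 h. Cyp1a2, an oxidase of caffeine, fell (-2.14 ± 0.28, adjusted p = 2.92e-07), as did Cyp2e1, which oxidises ethanol (-1.41 ± 0.27, adjusted p = 1.08e-04). The Cyp2c and Cyp3a genes have near-identical copies, so their single values are uncertain. The 3 that rose were Cyp4a12a (2.82 ± 0.58, adjusted p = 2.93e-04), whose 4 h libraries were at or near 3 reads, Cyp3a13 (1.06 ± 0.21, adjusted p = 2.44e-04) and Por, the electron donor of the family (1.31 ± 0.24, adjusted p = 6.25e-05).

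Among conjugating enzymes Gsta3, a glutathione transferase, read 919.7, 856, 812 and 1007 and then 120.4, 96.0, 163 and 103 (-2.92 ± 0.29, adjusted p = 1.87e-09). Ugt2b5, a glucuronyltransferase, read 218, 255, 253 and 222 and then 23.4, 46.5, 32.8 and 41.2 (-2.73 ± 0.27, adjusted p = 2.81e-09). Ces1c, a plasma carboxylesterase, fell from 3018, 2834, 2454 and 3084 to 959.9, 837, 1075 and 973 (-1.57 ± 0.14, adjusted p = 4.19e-10). All 12 h libraries of the 3 lay below all 4 h libraries. Sult1e1, the oestrogen sulfotransferase, is not in that list and went the other way, from 0.444, 1.2047, 1.09 and 0.644, all at or under 3 reads, to 15.7, 18.7, 25.6 and 24.3 (3.58 ± 0.45, adjusted p = 1.45e-07). Alas1, the first enzyme of heme synthesis, on which P450s depend, read 78.3, 123, 87.5 and 109 and then 707, 687, 708 and 618 (2.78 ± 0.21, adjusted p = 4.57e-12), and averaged 883 ± 152 (SD, n = 5) at 24 h.

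Bile acid genes were lower in 19 of 30 and higher in 4. Abcb11, the pump that exports bile salts into the canaliculus, read 3152, 1717, 1646 and 1728 and then 69.1, 89.5, 167 and 110.4 (-4.25 ± 0.32, adjusted p = 6.60e-12), and its 0 h mean was 2539 ± 120.0 (SD, n = 5). Slc10a1, the uptake transporter NTCP on the blood side, read 511, 470.3, 352 and 492.99 and then 46.1, 48.4, 86.5 and 74.4 (-2.85 ± 0.35, adjusted p = 1.11e-07). Slco1a1, another uptake transporter, fell (-3.90 ± 0.80, adjusted p = 2.90e-04), as did the synthesis enzymes Akr1d1 (-3.02 ± 0.51, adjusted p = 2.00e-05) and Cyp7b1 (-2.01 ± 0.50, adjusted p = 0.00232). Export and uptake were thus lower side by side. Cyp7a1, the rate-limiting enzyme of synthesis, averaged 23.7 ± 22.0 (SD, n = 5) at 0 h, was already between 0 and 3.99 at 4 h, and was listed at 0 in all 4 libraries at 12 h. Nr0b2, the repressor SHP, was likewise listed at 0 in all 4 at 12 h, from 1.33, 2.41, 8.75 and 3.86 at 4 h, 2 of them at or under 3 reads. Its fall (-2.14 ± 0.56, adjusted p = 0.00334) was not past the threshold with a pseudocount of 5 (adjusted p = 0.0759). Nr1h4, the bile acid receptor FXR, rose (1.00 ± 0.25, adjusted p = 0.00199), and so did Abcg8, a part of the sterol exporter (1.51 ± 0.33, adjusted p = 6.64e-04).

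Lipid storage and lipid synthesis moved unequally. Of 27 genes of droplets, lipolysis and lipoproteins 10 were higher and 5 lower, or 11 and 3 under upper-quartile rescaling. G0s2, an inhibitor of the lipase ATGL, had the largest rise of the step, from 2.66, 0, 0 and 1.29 at 4 h, with 3 of the 4 libraries at or under 3 reads, to 138, 126, 119.9 and 156 (6.31 ± 0.42, adjusted p = 5.27e-13), where its 0 h mean was 39.2 ± 14.1 (SD, n = 5). Plin2, the main coat protein of hepatocyte droplets, read 244, 357, 196 and 185 and then 827, 650.5, 794 and 973 (1.76 ± 0.23, adjusted p = 3.45e-07). Cidec, which fuses droplets, rose from 1.58, 5.16, 2.34 and 5.91 to 36.1, 32.4, 30.4 and 33.7 (2.96 ± 0.42, adjusted p = 1.61e-06). Plin4 (3.38 ± 0.58), Plin5 (2.46 ± 0.45) and Fabp4, a fatty acid carrier of fat cells and macrophages (2.88 ± 0.40), also rose. The falling members included Lipc, the hepatic lipase (-1.55 ± 0.20, adjusted p = 2.44e-07).

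Fatty acid and triglyceride synthesis had 12 of 27 lower and 3 higher. Fads1, a desaturase of polyunsaturated fatty acids, read 171, 149, 158 and 166 and then 25.5, 25.4, 36.4 and 35.1 (-2.37 ± 0.21, adjusted p = 2.07e-10). Elovl6, which elongates palmitate, read 110.1, 89.8, 125 and 124 and then 22.1, 31.9, 14.9 and 29.9 (-2.18 ± 0.31, adjusted p = 1.55e-06). Acss2, which makes acetyl-CoA from acetate, fell (-3.48 ± 0.52, adjusted p = 3.21e-06), with 4 h values between 62.7 and 376. Scd1 (-1.88 ± 0.38) and Acly (-1.91 ± 0.29) fell as well. Fasn (-0.46 ± 0.45) and Srebf1, the transcription factor of the pathway (-0.35 ± 0.32), were not past the threshold. The rising members were the phosphatidate phosphatases Lpin1 and Lpin2 (1.58 ± 0.29, adjusted p = 7.98e-05) and the acyltransferase Agpat2 (0.86 ± 0.22, adjusted p = 0.00301), which act in triglyceride assembly. Agpat2 was not past the threshold without the 2 deepest libraries (adjusted p = 0.0681). Lpin1 read 14.8, 16.9, 15.9 and 23.4 and then 192, 186, 176 and 227 (3.40 ± 0.31, adjusted p = 2.81e-10). Cholesterol synthesis was lower in 6 of 26 and higher in 2, close to the share over all genes.

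Fatty acid oxidation was divided, with 13 of 46 higher and 19 lower, or 14 and 14 under upper-quartile rescaling. Among those that rose were regulators and entry steps. Ppara, the receptor that drives the pathway, read 1.08, 0, 1.51 and 2.60, 3 of 4 at or under 3 reads, and then 8.27, 20.4, 6.68 and 11.0 (2.48 ± 0.43, adjusted p = 2.67e-05). Pdk4, which shuts glucose carbon out of the mitochondrion, rose from 1.44, 3.69, 1.35 and 9.03 to 72.2, 64.8, 30.7 and 53.9 (3.73 ± 0.59, adjusted p = 7.09e-06). Fgf21, a hormone of fasting and stress, read 0.888, 1.2047, 0 and 0, all at or under 3 reads, and then 19.7, 20.4, 22.3 and 19.2 (3.90 ± 0.65, adjusted p = 1.76e-05). Creb3l3, the membrane-bound transcription factor CREBH, rose (1.93 ± 0.21, adjusted p = 1.98e-08). Cpt1a, the carnitine gate to the mitochondrion, rose (0.88 ± 0.27, adjusted p = 0.0128), with overlapping groups. Cpt1a was not past the threshold without replicate 1 at 12 h (adjusted p = 0.0852) or without the 2 deepest libraries (0.126). Nor was it without replicate 4 at 4 h after median-of-ratios rescaling (0.0585). Among those that fell were enzymes of the cycle and of ketone bodies. Hadh read 581, 581, 638 and 447 and then 113, 126, 169 and 111 (-2.12 ± 0.22, adjusted p = 6.42e-09), and Bdh1, which reduces acetoacetate, fell (-2.31 ± 0.26, adjusted p = 2.24e-08). Inhbe, a hepatokine of the activin family outside the list, read 6.58, 18.0, 14.2 and 15.005 and then 171, 227, 273 and 229 (4.03 ± 0.38, adjusted p = 9.44e-10).

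Glucose and glycogen genes were higher in 8 of 33 and lower in 6, or in 12 and 4 under upper-quartile rescaling. G6pc, the phosphatase that releases glucose, read 2.22, 9.64, 2.19 and 12.2 and then 77.6, 79.7, 43.8 and 61.9 (3.40 ± 0.42, adjusted p = 1.45e-07), against 110.0 ± 37.8 (SD, n = 5) at 0 h. Foxo1, a transcription factor of fasting, rose from 62.9, 55.5, 59.2 and 58.7 to 213, 117, 160.0 and 144 (1.38 ± 0.18, adjusted p = 2.22e-07). Pck1, the other control point of glucose production, was not past the threshold (0.47 ± 0.29, adjusted p = 0.235); without replicate 4 at 4 h, whose 1028 lay above all 12 h libraries, it was (0.77 ± 0.29, adjusted p = 0.0397). Slc2a2, the glucose transporter of hepatocytes, read 75.9, 65.1, 89.7 and 56.7 and then 4.91, 7.63, 7.44 and 9.20 (-3.14 ± 0.31, adjusted p = 2.49e-09). Pfkfb3, which speeds glycolysis, fell from 209, 168, 202 and 155 to 28.0, 23.2, 38.8 and 44.5 (-2.45 ± 0.33, adjusted p = 4.34e-07), with a 0 h mean of 6.81 ± 1.99 (SD, n = 5). The glycogen enzymes Ugp2 (-1.60 ± 0.26, adjusted p = 8.72e-06) and Pygl (-1.38 ± 0.28, adjusted p = 2.63e-04) fell. Igfbp1 was not past the threshold (0.80 ± 0.44, adjusted p = 0.168).

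Amino acid catabolism and the urea cycle were lower in 29 of 49 and higher in 8. Within the cycle the steps went apart. Cps1, the entry enzyme, read 2669.6, 2114, 1819 and 1701 and then 1110.2, 706, 942 and 627 (-1.31 ± 0.26, adjusted p = 1.47e-04), and Otc (-1.67 ± 0.27, adjusted p = 1.25e-05) and Ass1 (-1.48 ± 0.33, adjusted p = 6.23e-04) fell too. Arg1, which splits arginine to urea, read 986, 1034, 732 and 598 and then 3089, 2024, 2728 and 2615 (1.66 ± 0.18, adjusted p = 1.14e-08), and Asl (0.75 ± 0.23, adjusted p = 0.0124) and the ornithine carrier Slc25a15 (1.54 ± 0.23, adjusted p = 4.34e-06) rose too, though Asl was not past the threshold without replicate 2 at 4 h (adjusted p = 0.0728) or replicate 1 at 12 h (0.0545). Cth, which makes cysteine, read 132, 87.2, 91.3 and 171 and then 6.63, 13.7, 9.30 and 6.21 (-3.61 ± 0.46, adjusted p = 2.30e-07). Mat1a, which makes S-adenosylmethionine in hepatocytes, rose from 3666, 2721, 2948 and 3679.8 to 8379.9, 6251, 6496 and 7968 (1.16 ± 0.20, adjusted p = 2.00e-05).

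Nuclear-encoded subunits of the respiratory chain and ATP synthase were lower in 48 of 77 and higher in 0, with a median of -0.63; 21 were lower and 1 higher under upper-quartile rescaling (median -0.37). Atp5c1, the gamma subunit of ATP synthase, read 1316, 1346, 1049 and 1029 and then 531, 601, 697 and 612 (-0.95 ± 0.15, adjusted p = 8.87e-06). Transcripts of the mitochondrial genome were lower in 10 of 13 and higher in 0 (median -1.01). mt-Cytb, the cytochrome b subunit, read 32469, 34582, 23728 and 28512 and then 14429, 10943, 14391 and 12016 (-1.20 ± 0.14, adjusted p = 5.86e-08). Cytosolic ribosomal proteins were higher in 3 of 79 and lower in 2 (median 0.00), or 14 and 0 under upper-quartile rescaling and 1 and 3 without replicate 4 at 4 h.

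Clock genes were higher in 6 of 18 and lower in 1, and no label gives the hour of day of the collections. Per2, a repressor of the loop, read 0, 0, 0 and 1.32, all at or under 3 reads, and then 7.04, 10.8, 9.73 and 8.99 (3.03 ± 0.55, adjusted p = 5.69e-05). Ciart, a repressor, rose (1.66 ± 0.57, adjusted p = 0.0251) but was not past the threshold without replicate 2 or 3 at 4 h, or 1, 3 or 4 at 12 h (adjusted p from 0.0649 to 0.0854). Nr1d1, the repressor REV-ERB alpha, fell from 7.19, 4.21, 3.40 and 3.86 to 1.24, 0, 0 and 1.58, all at or under 3 reads (-1.82 ± 0.51, adjusted p = 0.00624), and was not past the threshold without the 2 deepest libraries (adjusted p = 0.062). Per1 rose (1.43 ± 0.50, adjusted p = 0.0288), with overlapping groups, and was not past the threshold without replicate 1, 3 or 4 at 4 h or 1 at 12 h (adjusted p from 0.0617 to 0.129). Arntl, the activator BMAL1, was not past the threshold (-0.26 ± 0.41). The Ciart window, shown because its gene rose and it holds 3 copies of the E-box CACGTG that CLOCK and BMAL1 bind, reads as follows with the matches in capitals.
Ciart, chr3:95882179-95882478, minus strand: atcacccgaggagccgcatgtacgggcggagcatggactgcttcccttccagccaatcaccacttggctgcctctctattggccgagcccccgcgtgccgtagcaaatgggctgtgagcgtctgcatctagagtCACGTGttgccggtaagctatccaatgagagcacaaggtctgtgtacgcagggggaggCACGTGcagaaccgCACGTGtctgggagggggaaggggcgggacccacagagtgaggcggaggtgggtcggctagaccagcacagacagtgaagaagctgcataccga
Among genes with a promoter, E-boxes stood in 2 of 13 clock genes (15.4%), 12.0% of tested genes, 13.4% of genes higher at 12 h and 9.41% of genes lower. Counted by start, they stood in 7.15% of RefSeq promoters.

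The cold-inducible RNA-binding proteins, which rise in cells kept at mild hypothermia, rose in this step. At 22 °C 2 of 3 members were higher too, and Cirbp rose there by 2.68 ± 0.38. Its difference between the steps (-0.57 ± 0.55) was not past the threshold. Rbm3 read 62.0, 69.4, 95.4 and 84.7 at 4 h and 244, 289, 288 and 284 at 12 h (1.83 ± 0.20, adjusted p = 1.85e-08), against 57.1 ± 23.03 (SD, n = 5) at 0 h and 238 ± 38.3 (SD, n = 5) at 24 h. Cirbp read 1.87, 3.62, 4.61 and 3.49 and then 7.09, 16.3, 24.4 and 31.2 (2.11 ± 0.40, adjusted p = 1.05e-04), against 10.0 ± 3.17 (SD, n = 5) at 0 h. The times did not overlap in either gene, and of 3 tested members 2 were higher. Of 19 cytosolic heat shock proteins and chaperones 7 were lower and 0 higher, with 3 lower under upper-quartile rescaling. Hspa1b, the inducible HSP70, read 58.1, 36.1, 58.5 and 51.0 and then 14.7, 7.63, 4.13 and 6.69 (-2.58 ± 0.51, adjusted p = 1.82e-04), with reads shared with its twin copy, and Hspa8, the constitutive form, read 401, 259.9, 243 and 388 and then 147, 96.7, 134 and 109 (-1.38 ± 0.23, adjusted p = 1.96e-05). Hsp90aa1 (0.10 ± 0.31) was not past the threshold. No label gives a body temperature.

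Unfolded protein and integrated stress response genes mostly did not pass, with 4 of 34 higher and 3 lower, or 12 and 1 under upper-quartile rescaling and 3 and 4 without replicate 4 at 4 h. Ddit4, an inhibitor of mTORC1, rose from 6.22, 4.82, 7.66 and 5.80 to 37.3, 39.9, 26.5 and 26.8 (2.23 ± 0.33, adjusted p = 2.82e-06), and Dnajb9, a chaperone of the endoplasmic reticulum, fell (-1.40 ± 0.26, adjusted p = 9.66e-05). Hspa5 (0.18 ± 0.24) and Xbp1 (-0.51 ± 0.22), the central chaperone and transcription factor, were not past the threshold. Atf3, an early stress factor, fell from 54.2, 27.7, 44.9 and 34.8 to 1.97, 11.9, 4.96 and 5.86 (-2.67 ± 0.54, adjusted p = 2.02e-04). Growth arrest, p53 and apoptosis genes were lower in 7 of 23 and higher in 3 (median -0.74), against 17.9% lower and 12.3% higher over all genes. Among those that fell, Gadd45a read 79.0, 79.4, 90.7 and 72.1 and then 11.9, 11.6, 9.98 and 6.89 (-2.90 ± 0.65, adjusted p = 7.47e-04). Among those that rose, the cell-cycle inhibitor Cdkn1a went from 97.2, 121, 72.8 and 70.4 to 201, 197, 249 and 288 (1.38 ± 0.34, adjusted p = 0.00188). The death effector Bax rose too (1.60 ± 0.40, adjusted p = 0.00222). Catalase, Cat, which breaks down hydrogen peroxide, read 1978, 1289, 1870.2 and 1363 and then 189, 289, 343 and 205 (-2.67 ± 0.30, adjusted p = 2.88e-08).

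Hepatocyte transcription factors were higher in 9 of 27 and lower in 3. Nr1i2, the drug-sensing receptor PXR, read 13.3, 13.3, 9.85 and 8.37 and then 60.9, 57.7, 48.8 and 47.7 (2.18 ± 0.29, adjusted p = 3.75e-07), against 77.3 ± 12.1 (SD, n = 5) at 0 h. Rxra, its dimer partner, rose (1.07 ± 0.19, adjusted p = 3.98e-05), and Onecut1, a factor of liver development, rose (2.02 ± 0.47, adjusted p = 0.00121). Hnf4a (-0.22 ± 0.18) and Cebpa (-0.66 ± 0.30) were not past the threshold. Cyp3a11, a known target of PXR, fell in the same libraries. The growth hormone and IGF1 axis was lower in 8 of 14 and higher in 1: Ghr, the receptor, read 131, 96.8, 116 and 183 and then 40.9, 22.4, 51.9 and 33.8 (-1.81 ± 0.25, adjusted p = 8.71e-07), and Igf1, its secreted target, fell by less (-0.89 ± 0.17, adjusted p = 1.49e-04).

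Metal genes were higher in 6 of 27 and lower in 10, or in 7 and 6 under upper-quartile rescaling. Slc30a1, the zinc exporter, read 3.95, 4.36, 1.52 and 2.87 and then 32.0, 29.2, 32.4 and 29.5 (2.99 ± 0.22, adjusted p = 3.44e-12), and an unnamed gene with the same value in every library cannot be told apart from it. Hfe2, the hemojuvelin that induces hepcidin, rose from 1.78, 1.2047, 1.09 and 0, 3 of 4 at or under 3 reads, to 20.6, 11.0, 19.0 and 21.8 (3.29 ± 0.57, adjusted p = 2.93e-05), in the libraries in which Hamp fell. The metallothionein Mt1 was not past the threshold (-0.25 ± 0.24) and stood at 6430.0 ± 835 (SD, n = 4) at 12 h against 341 ± 113 (SD, n = 5) at 0 h. Mt2 fell (-0.70 ± 0.24, adjusted p = 0.0233), though with overlapping groups and not past the threshold under upper-quartile rescaling (-0.44, adjusted p = 0.179) or without any of replicates 1, 2 and 3 at 4 h or 2 and 3 at 12 h (adjusted p from 0.0511 to 0.111).

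Among markers of other liver cells, those of Kupffer cells (66.7%) and neutrophils (90.0%) were called more widely than the 30.2% over all genes. Stellate markers (46.2%) also lay above that share, and of 4 tested cholangiocyte markers 2 were higher and 1 lower. Of 6 tested erythroid and platelet markers 2 were lower (33.3%), or 0 under upper-quartile rescaling. Kupffer cell and macrophage markers were lower in 11 of 18 and higher in 1, and their summed signal was 652 to 754 at 4 h and 225 to 281 at 12 h. Leaving out Vcam1, Id3 and Slc40a1, which other liver cells also express, the sum was 279.6 to 361 and then 149 to 192. Vsig4 (-2.39 ± 0.51, adjusted p = 3.95e-04) and Cd5l (-2.40 ± 0.49, adjusted p = 2.88e-04), a surface and a secreted protein of resident macrophages, fell, with 2 of the 12 h libraries of each at or under 3 reads. Clec4f, a specific marker of mouse Kupffer cells, read 39.1, 33.7, 23.9 and 30.5 and then 15.5, 16.8, 11.5 and 13.2 (-1.09 ± 0.37, adjusted p = 0.0216), and was not past the threshold under upper-quartile rescaling (-0.85, adjusted p = 0.0692), without replicate 1 at 4 h (0.0641) or without replicate 3 at 12 h (0.0596). Csf1r (-0.21 ± 0.29), Marco (0.46 ± 0.44) and Timd4 (0.30 ± 0.54) were not past the threshold. The part of Kupffer cell number in the falls of cytokine genes and C1qa was not tested.

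Neutrophil markers went the other way, with 8 of 10 higher and 1 lower. S100a8, a calcium-binding protein abundant in neutrophils, read 53.2, 79.5, 48.9 and 47.7 and then 159, 299.7, 233 and 321 (2.10 ± 0.35, adjusted p = 1.53e-05), against 4.95 ± 2.44 (SD, n = 5) at 0 h. S100a9, its partner, read 39.0, 38.9, 23.2 and 50.01 and then 107, 141, 136 and 162 (1.86 ± 0.39, adjusted p = 3.47e-04). Summed signal of the list was 2107 to 2683 at 4 h and 5022 to 5488 at 12 h. Hepatocytes also express Lcn2 and G0s2, and without both the sum was 398 to 582 and then 806 to 1095, with 6 of 8 tested members higher and 1 lower. Cxcr2, their chemokine receptor, was not past the threshold (-0.56 ± 0.51), and of the granule genes, which neutrophils make as they mature, Elane was listed at 0 in every library of both times and Mpo in every 12 h library. Endothelial and monocyte markers were called in shares near or under that background (23.8% and 30.8%). Sinusoidal endothelial markers were lower in 4 of 21 and higher in 1, stellate markers lower in 5 of 13 and higher in 1, and monocyte markers lower in 2 of 13 and higher in 2. Under upper-quartile rescaling these counts were 4 lower and 3 higher, 3 and 1, and 1 and 3, and without replicate 4 at 4 h the endothelial markers were lower in 5 and higher in 2. Of 3 tested T and NK cell markers, 2 of B cells and 1 of dendritic cells none was past the threshold.

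The same step at 22 °C, from 4 libraries at 4 h and 5 at 12 h that share none with the step at 30 °C, had 1032 genes higher and 1252 lower (26.2% of all tested). Of the calls 1521 were common, 57.8% of those at 30 °C and 66.6% of those at 22 °C, and 1520 of them had the same sign. Across the 8702 genes, which are not independent replicates, the log2 differences of the steps correlated at r = 0.748 and rho = 0.718. The difference of the steps, tested as an interaction, was called in 13 genes (0.149%), 5 with the step at 30 °C higher (0.0575%) and 8 lower (0.0919%).

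**Figure D4:**
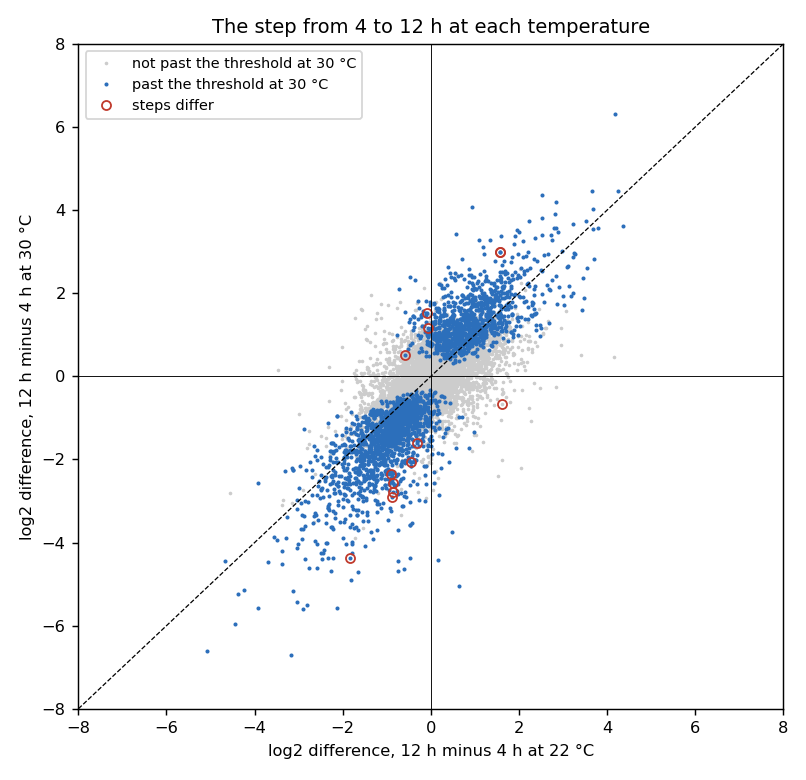
Log2 difference from 4 to 12 h at 30 °C (vertical) against 22 °C (horizontal) for 8702 genes, with the line of equality dashed, genes called at 30 °C in blue and the 13 whose steps differed circled in red. Most genes called at 30 °C lie at the lower left and upper right (95.8% of the 2630 have the same sign at 22 °C, against 76.65% of all 8702).

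Rnd1, a small GTPase that loosens the actin cytoskeleton, had the largest such difference. At 30 °C it read 246, 168, 188 and 113 and then 7.57, 8.45, 5.29 and 8.51 (-4.38 ± 0.36, adjusted p = 4.16e-11), and at 22 °C it averaged 116 ± 26.9 (SD, n = 4) and then 38.7 ± 26.7 (SD, n = 5) (-1.84 ± 0.34), a difference of steps of -2.54 ± 0.50, adjusted p = 0.0187. Fabp1, the fatty acid carrier of hepatocytes, went from 1846, 2807, 1982 and 1758 to 261, 316, 328 and 294 at 30 °C (-2.78 ± 0.30, adjusted p = 9.93e-09) and fell by 0.87 at 22 °C, a difference of -1.91 ± 0.41, adjusted p = 0.0398. Cyp2c37 (-2.04 ± 0.40, adjusted p = 0.0187) and Cyp2c68 (-1.44 ± 0.29, adjusted p = 0.0187), related epoxygenases whose reads may be shared, Pnrc1, a nuclear receptor coactivator (-1.72 ± 0.33, adjusted p = 0.0187), Pcyox1, which breaks down prenylcysteine (-1.62 ± 0.30, adjusted p = 0.0187), and Cpq, a plasma carboxypeptidase (-1.29 ± 0.25, adjusted p = 0.0187), also had a lower step at 30 °C. Oit3, a sinusoidal endothelial gene, rose at 22 °C (1.62 ± 0.34) and was not past the threshold at 30 °C (-0.67 ± 0.35). In the other direction, Slc25a15 (1.63 ± 0.32, adjusted p = 0.0187) and Mat1a (1.23 ± 0.27, adjusted p = 0.042) rose at 30 °C and were not past the threshold at 22 °C (-0.09 ± 0.22 and -0.07 ± 0.19). Sfxn1, the mitochondrial serine carrier, rose by 0.51 at 30 °C and fell by 0.58 at 22 °C (1.09 ± 0.24, adjusted p = 0.042), and Slc30a1 rose at both (1.42 ± 0.30, adjusted p = 0.039). These calls rest on few libraries: 3 were called without replicate 4 at 4 h, 0 without replicate 1 at 12 h (in limma, with 814 genes at an unadjusted p under 0.05) and 138 with array weights. In the step at 30 °C itself Sfxn1 was not past the threshold without replicate 1 or 2 at 4 h or 2 or 4 at 12 h (adjusted p from 0.0556 to 0.0787).

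**Figure D5:**
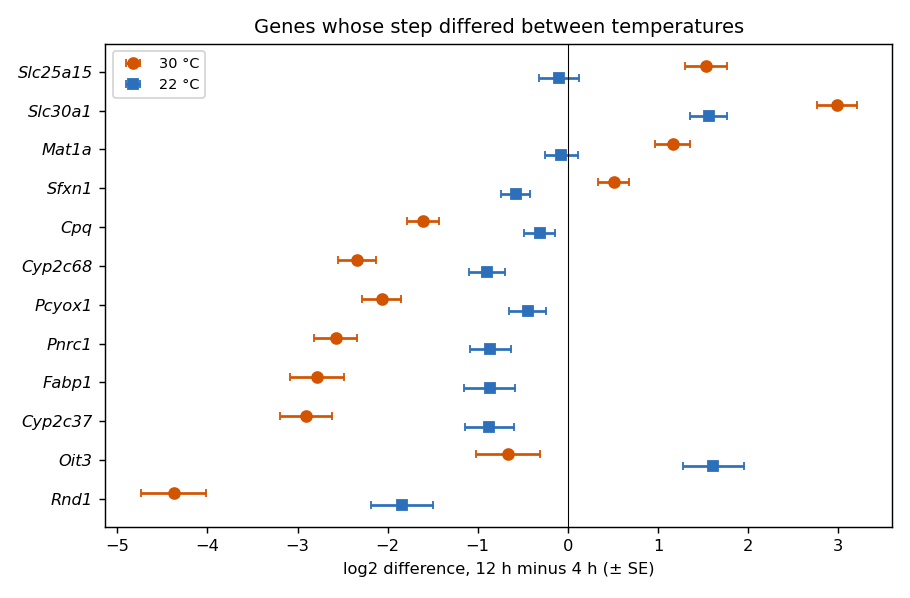
Log2 difference from 4 to 12 h ± SE at 30 °C (orange circles) and 22 °C (blue squares) for the 12 named genes whose steps differed. 8 lie further to the left at 30 °C, from Rnd1 (-4.38 against -1.84) to Cpq (-1.61 against -0.31), and 4 further to the right.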

How the data were processed

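Liver RNA from 36 libraries was read by CEL-Seq2, per the labels' protocols. The authors deposited a signal per gene named scaled reads per base, and a TPM column that was treated as signal because its sums differ between libraries. Trimmomatic, kallisto and sleuth are named per the submitters' processing notes; versions, the transcript index, the scaling and the collapsing of molecular identifiers stay unknown, being not given in the sources used here. Groups came from the labels. The 8702 of 34829 genes that averaged 5 or more over the 36 libraries were tested on log2(signal + 1) with limma 3.58.1 in R 4.3.3, with 1 mean per group and a variance trend, Benjamini-Hochberg adjustment over those genes and a threshold of 0.05. Depth was estimated by taking the most common signal value below 3 in each library as the worth of 1 read and dividing the summed signal by it, which is approximate. It limits the precision of genes near 3 reads. Promoters came from RefSeq (GRCm38.p6). The groups and gene lists were chosen with earlier results of these data known. Genes were named by rule: the 12 strongest rises and 12 strongest falls among officially named genes averaging 20 or more in their higher group, in each list its largest rise and fall and 5 or fewer members by p, a fixed set of liver and inflammation genes, and the 12 genes of smallest p in the difference between the steps. Other list members named in the text were chosen after their values were seen, and some genes are not reported here. The script was tested on simulated data. Alternatives were other filters, pseudocounts of 0.5 and 5, TPM values, other scalings, fits of the groups alone, array weights, a robust fit, a replicate block and each library left out; 2 more were added after seeing the data.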

Additional observations from a re-analysis of the deposited data

Results flagged for a closer look

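Among 382 sets of 4 values (each named gene on log2(signal + 1), and library measures, at 4 and 12 h), 21 held 1 library further from the other 3 than Dixon's 95% critical value of 0.829 allows, where chance gives about 1 in 20. Replicate 4 at 4 h stood out for its satellite share of 21.97% and its predicted-gene share of 34.97%. Replicate 1 at 4 h lay above the other 3 in Abcb11 (3151.7), Saa1 (12418.5) and Saa2 (7778.0). Replicate 2 at 4 h lay below the other 3 in Ccl3 (38.55). Replicate 3 at 4 h lay below the other 3 in Hspa5 (306.7) and Oas1a (0). Replicate 4 at 4 h lay above the other 3 in Pck1 (1028.2) and Per2 (1.318) and lay below the other 3 in Csf1r (18.13). Replicate 1 at 12 h lay above the other 3 in Irf1 (76.35) and lay below the other 3 in Rbm3 (244.3). Replicate 2 at 12 h lay below the other 3 in Ciart (1.068), Cyp3a11 (707.1) and Gbp2 (550.2). Replicate 3 at 12 h lay above the other 3 in Akr1d1 (7.881), Cyp2c68 (403), Il1b (10.09) and Serpina6 (63.39). Replicate 4 at 12 h lay above the other 3 in Cxcl10 (181.3).

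In 13 genes the step from 4 to 12 h differed between the temperatures by the interaction test. The step at 30 °C minus that at 22 °C was above 0 in ENSMUSG00000110850 (1.423), Slc30a1 (1.423), Slc25a15 (1.629), Mat1a (1.232) and Sfxn1 (1.087), and below 0 in Rnd1 (-2.536), Cyp2c68 (-1.444), Pnrc1 (-1.717), Cyp2c37 (-2.04), Pcyox1 (-1.621), Fabp1 (-1.913), Cpq (-1.294) and Oit3 (-2.284). The values of Slc30a1 and the unnamed gene are identical.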

How the results depend on the processing

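Of 187 named genes, 157 were called in the step at 30 °C. Of these, 142 stayed past the threshold in each of the 21 settings in which they were tested, 15 were lost in at least 1, and none of the 187 reversed. Several list members whose call changed with a left-out library or the scaling were not named in the text, so this share favours stable calls. Ccl5, Cebpa, Igfbp1, Irf7, Nfkbiz, Pck1 and Xbp1, given as not past the threshold, were past it in at least 1 setting. Raising the filter to a mean of at least 20 gave 643 genes higher at 30 °C and 620 at 22 °C, from fewer genes tested, and upper-quartile rescaling gave 1740 higher at 30 °C, where the cause was not tested. The difference between the steps (5 higher, 8 lower) was the least stable count. Higher calls numbered 3 with the filter of 20, 2 with no filter, 3 with a pseudocount of 5, 1 with TPM values, 2 with the groups fitted alone, 45 with array weights, 0 without replicate 4 at 4 h after median-of-ratios rescaling and 10 without the 2 deepest libraries. Lower calls numbered 5 with no filter, 93 with array weights and 3 without replicate 4 at 4 h after median-of-ratios rescaling. The cause was not tested. With each of the 8 libraries of the step at 30 °C left out in turn, higher calls ranged from 0 to 6 and lower calls from 0 to 17. No library at 22 °C was left out, though the difference rests on those too. Same-numbered 4 h and 12 h libraries at 30 °C did not deviate together (correlations of 0.016, -0.125, -0.027 and -0.044). Some 12 h replicate numbers differ from those in the authors' sample names, so neither these values nor the replicate block can exclude a pairing. With the replicate block, 8 genes were higher and 13 lower in the difference between the steps, and 1078 and 1556 in the step at 30 °C. Depth limits genes near 3 reads, and the scaling limits the balance of rises and falls.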
